A study of Homo sapiens with 6 samples.

Results

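The UGT1A locus of human chromosome 2 and the gene UGT8 on chromosome 4 were examined in MCF10AT1, an HRAS-transformed line that descends from the human breast epithelial line MCF10A. The members were the 9 UGT1A genes UGT1A1, UGT1A3, UGT1A4, UGT1A5, UGT1A6, UGT1A7, UGT1A8, UGT1A9 and UGT1A10 together with UGT8, 10 of 58381 gene rows in the deposited table. They were found by matching Ensembl IDs to GENCODE 29 symbols, and the locus was chosen from the read counts of these same libraries, in which several UGT1A rows held the same values. The difference between the sorted fractions is therefore given for them as a description, with no test.

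Cells had been stained for the surface proteins CD24 and CD44 and sorted by both. Cells that were CD44high and CD24low gave 3 libraries, named CSC by the submitters, and cells that were CD44+ and CD24high gave 3 more, named Bulk. No other treatment, genotype or time separates them: both come from 1 line grown in medium with horse serum, insulin, EGF, cholera toxin and hydrocortisone. Values are normalized counts, that is, gene counts divided by a size factor for each library. A single read stood for between 0.830 and 1.46 of these units. Nothing in the labels says that replicates are separate cultures, so the spread between them may be technical. Markers of breast epithelium (6 of 6 detected) summed to 63057 to 67697 normalized counts in CD24high and to 42059 to 60059 in CD24low libraries. Most of this came from KRT5 and KRT18. Each marker had a lower mean in CD24low libraries, with overlap between the groups for KRT14 and KRT18. TP63 had 246 ± 51.6 in CD24high and 98.9 ± 13.2 in CD24low libraries (SD, n = 3). The hepatocyte markers ALB, APOA1 and TTR, from a tissue in which UGT1A genes are abundant, summed to at most 1.76, with ALB at 0 in all 6 libraries. Of 3 enterocyte markers CDX2 was at 0, and the sum was at most 4.78. Of 3 oligodendrocyte markers MOG was at 0, while MBP stood at 643 to 1226.

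UDP-glucuronosyltransferases are enzymes of the endoplasmic reticulum that attach glucuronic acid from a UDP-sugar to bilirubin, steroids, drugs and plant phenols, which makes these more soluble for export. The UGT1A genes share one locus: each has its own first exon and promoter, which encodes the substrate-binding part, and splices to the same downstream exons, which encode the part that holds the UDP-sugar. UGT8 belongs to the same superfamily but uses UDP-galactose. It makes galactosylceramide, a lipid best known from myelin.

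In GENCODE 29 on hg38, the 9 UGT1A genes lie on the plus strand of chromosome 2 and start between 233617645 (UGT1A8) and 233760248 (UGT1A1), and all of them end between 233773299 and 233773310. The common exons are 4 in number and hold 1478 bases that belong to all 9 genes. The sequences below show why a read from these exons cannot be assigned to 1 gene: for each main transcript, the last 30 bases of the first exon are in lower case and the first 30 of the common second exon, at chr2:233767034-233767063, in capitals (5′ to 3′, from the GENCODE transcript sequences).
UGT1A1: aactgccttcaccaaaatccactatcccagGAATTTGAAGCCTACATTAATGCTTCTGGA, which conjugates bilirubin, first exon at chr2:233760248-233761151.
UGT1A3: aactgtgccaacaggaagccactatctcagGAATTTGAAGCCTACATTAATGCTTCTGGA, which conjugates bile acids and estrogens, first exon at chr2:233729108-233729993.
UGT1A4: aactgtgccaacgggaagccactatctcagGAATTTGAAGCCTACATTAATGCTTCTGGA, which conjugates amines, first exon at chr2:233718778-233719687.
UGT1A5: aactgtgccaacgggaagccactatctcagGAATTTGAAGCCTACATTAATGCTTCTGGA, a little-studied enzyme, first exon at chr2:233712992-233713858.
UGT1A6: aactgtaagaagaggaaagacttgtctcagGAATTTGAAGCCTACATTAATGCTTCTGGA, which conjugates small phenols and serotonin, first exon at chr2:233692866-233693865.
UGT1A7: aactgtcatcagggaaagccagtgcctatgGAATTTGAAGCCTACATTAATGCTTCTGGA, an enzyme found outside the liver, first exon at chr2:233681938-233682792.
UGT1A8: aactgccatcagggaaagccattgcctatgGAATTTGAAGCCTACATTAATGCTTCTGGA, an enzyme of the gut, first exon at chr2:233617645-233618562.
UGT1A9: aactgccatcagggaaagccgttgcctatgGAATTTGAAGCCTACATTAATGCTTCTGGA, which conjugates phenols, first exon at chr2:233671853-233672789.
UGT1A10: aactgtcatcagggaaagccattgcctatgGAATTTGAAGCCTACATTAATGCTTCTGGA, an enzyme of the gut, first exon at chr2:233636454-233637377.
The capital parts are the same letters in each gene. The lower-case parts differ between most genes. First exons fell into groups by sequence: those of UGT1A7, UGT1A8, UGT1A9 and UGT1A10 were 91.7% to 94.4% identical over their aligned bases, and those of UGT1A3, UGT1A4 and UGT1A5 93.1% to 94.1%. All other pairs, 27 in number, had 61.0% to 68.5%. Windows of 50 bases that occur unchanged in another UGT1A first exon made up 29.6% of the UGT1A8, 20.9% of the UGT1A10, 17.1% of the UGT1A9 and 8.06% of the UGT1A7 first exon, and 13.0% of the UGT1A5, 10.3% of the UGT1A4 and 9.68% of the UGT1A3 first exon. In UGT1A1 and UGT1A6 they made up 0%.

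The UGT1A rows behaved as 1 signal. UGT1A3, UGT1A5, UGT1A8 and UGT1A9 had the same value in every library, and this was also the smallest value of any UGT1A row, called here the shared value. It came to 19, 18 and 14 reads in the 3 CD24high libraries, given here and below in the order of their replicate numbers, and to 2, 4 and 8 in the CD24low libraries. Over all 9 rows and 6 libraries, 35 of 54 values equalled it. The identical rows are therefore counted once in what follows and not as separate genes that moved together. Of the 16047 genes whose mean reached 10 normalized counts, 87, these UGT1A rows among them, had read counts equal to those of another gene in all 6 libraries.

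The shared value was lower in CD24low cells. In normalized counts it was 15.8, 17.8 and 20.5 in the CD24high libraries (18.0 ± 2.35, SD, n = 3), and 1.76, 3.82 and 7.84 in the CD24low libraries (4.47 ± 3.09, SD, n = 3). The groups did not overlap, and CD24low replicate 3 was the highest of its group. The means differed 4.02-fold, with a log2 difference of -1.95 (SE 0.48), the CD24low mean less the CD24high mean of log2 values taken after adding 1, which understates the change of low values. The summed reads were 51 against 14, and their ratio, adjusted for the size factors of the libraries, was 4.02, with an exact 95% interval of 2.19 to 7.87 that covers counting error only. The counting intervals below carry the same adjustment. CD24low replicate 1 lay below the limit of 3 reads, 2.64 normalized counts in that library, that a count of 0 allows. In bulk RNA, fewer cells that express the locus and less RNA per cell cannot be told apart.

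**Figure D1:**
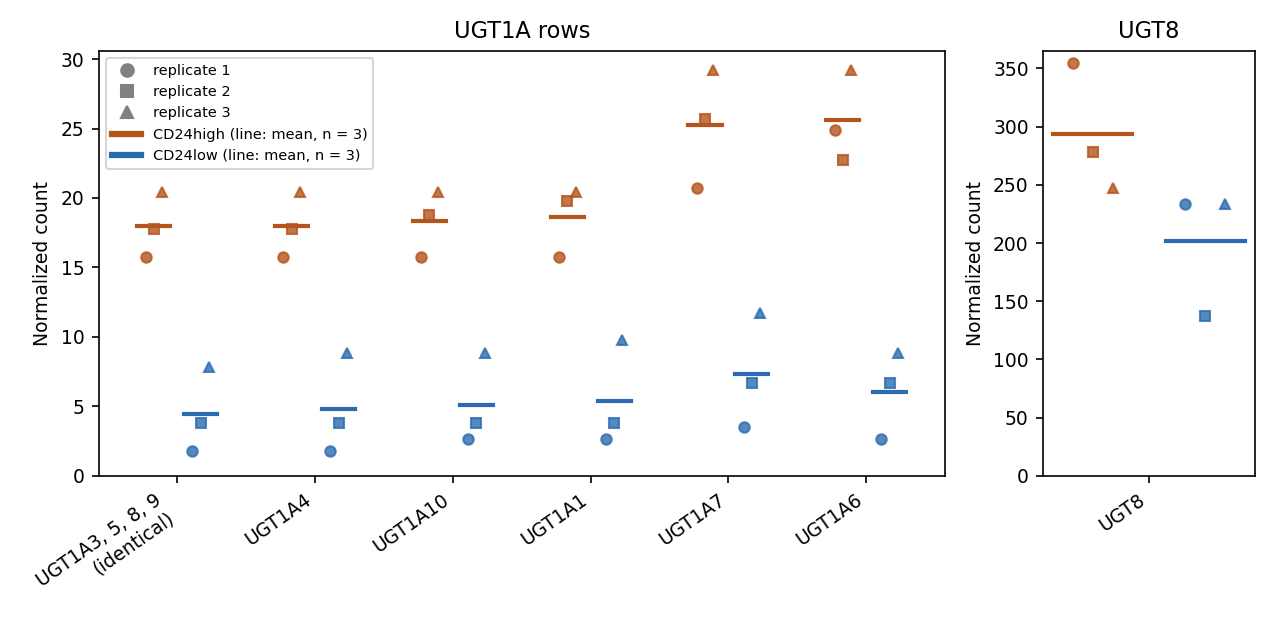
Normalized counts (vertical axes, from 0) of the UGT1A rows and of UGT8 in each library, with symbols for replicates, colours for the sorted fractions and lines for means of 3 libraries. The 4 identical rows are drawn once, and in each row shown the CD24low libraries lie below the CD24high libraries. The means differ 4.02-fold for the identical rows and 1.46-fold for UGT8.

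UGT1A6 and UGT1A7 were the only rows above the shared value in all 6 libraries. Beyond it, UGT1A6 had 11, 5 and 6 reads in the CD24high libraries and 1, 3 and 1 in the CD24low libraries. In normalized counts these excess reads came to 9.13, 4.94 and 8.77 (7.61 ± 2.32, SD, n = 3) against 0.881, 2.87 and 0.980 (1.58 ± 1.12, SD, n = 3). The groups did not overlap, and the log2 difference was -1.78 (SE 0.54). The summed reads were 22 against 5, with a ratio adjusted for size factors of 4.86 and an exact 95% counting interval of 1.79 to 16.4. Not all of these reads need be of UGT1A6 alone, since it shares further exon bases with other UGT1A genes. The largest such set is 414 bases held with UGT1A3, whose row had no reads beyond the shared value. Others are given below.

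UGT1A7 had 6, 8 and 6 reads beyond the shared value in the CD24high libraries, and 2, 3 and 4 in the CD24low libraries. These are 7.22 ± 1.99 and 2.85 ± 1.08 normalized counts (SD, n = 3), a log2 difference of -1.10 (SE 0.48). The groups did not overlap here either. The summed reads were 20 against 9, with an adjusted ratio of 2.45 and an exact 95% counting interval of 1.07 to 6.12. UGT1A6 and UGT1A7 had equal excess in CD24high replicate 3 and in CD24low replicate 2, and 214 exon bases belong to both genes, and the table does not show whether any of these reads were counted for both.

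As whole rows, shared reads included, UGT1A6 stood at 25.6 ± 3.31 normalized counts in CD24high libraries and at 6.05 ± 3.13 in CD24low libraries (SD, n = 3), a log2 difference of -2.03 (SE 0.43). The UGT1A7 row had 25.2 ± 4.26 and 7.32 ± 4.15 (-1.77, SE 0.43). Neither order of these rows is beyond their spread: UGT1A6 was above UGT1A7 in CD24high replicate 1, and UGT1A7 above UGT1A6 in CD24high replicate 2.

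**Figure D2:**
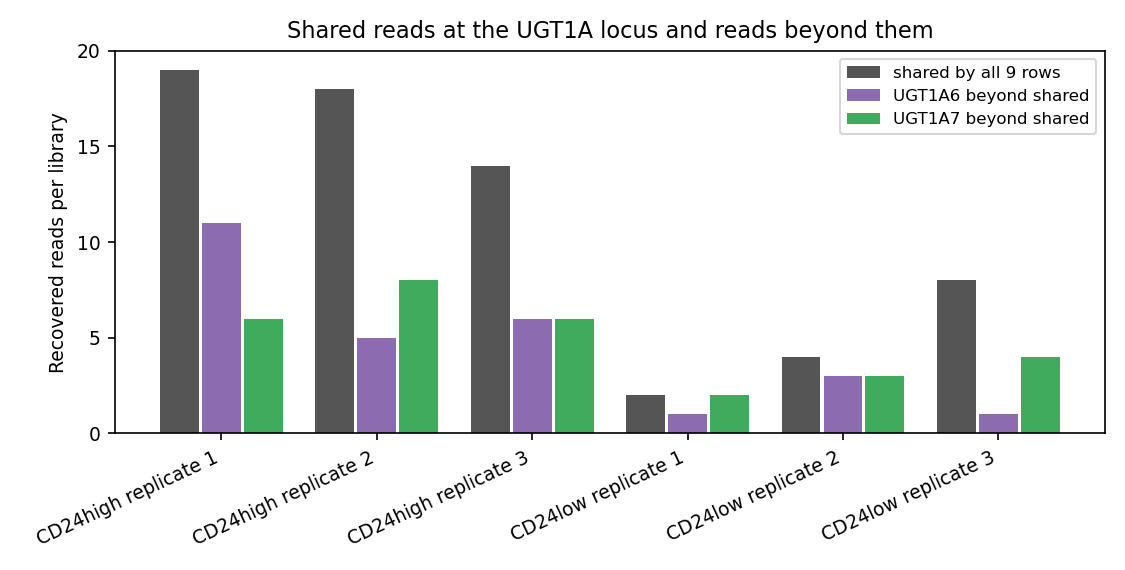
Recovered reads per library (vertical axis, from 0) that all 9 UGT1A rows share, and reads that the UGT1A6 and UGT1A7 rows hold beyond them. Shared reads number 14 to 19 in the CD24high and 2 to 8 in the CD24low libraries, and UGT1A6 exceeds UGT1A7 in CD24high replicate 1 only.

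The remaining UGT1A rows held few reads of their own. UGT1A1 had 2 reads beyond the shared value in CD24high replicate 2, 1 in CD24low replicate 1 and 2 in CD24low replicate 3. UGT1A10 had 1 read in each of the same 3 libraries, and UGT1A4 had 1 in CD24low replicate 3. An alternative last exon of the common part belongs to only some of the genes: 134 of its bases to UGT1A1, UGT1A4, UGT1A6 and UGT1A10, a further 37 to UGT1A1, UGT1A6 and UGT1A10, and 578 to UGT1A1 and UGT1A10. The table gives no position within a gene, so these reads cannot be placed in this exon or in a first exon. UGT1A6 had excess reads in all 3 libraries with a UGT1A10 read, with 1 in CD24low replicate 3. Part of the UGT1A6 excess may thus be the same reads. Their rows came to 18.7 ± 2.53 and 5.42 ± 3.83 normalized counts for UGT1A1 (-1.77, SE 0.46), 18.3 ± 2.38 and 5.09 ± 3.28 for UGT1A10 (-1.79, SE 0.45), and 18.0 ± 2.35 and 4.80 ± 3.63 for UGT1A4 (-1.90, SE 0.50), each CD24high first and n = 3. Nearly all of these rows is the shared value, so they are not separate measurements. At UGT1A3, UGT1A5, UGT1A8 and UGT1A9 the exons outside the shared part, of 886, 867, 929 and 938 bases, added 0 reads in any library. This allows up to 3 reads per library, or 2.49 to 4.38 normalized counts.

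**Figure D3:**
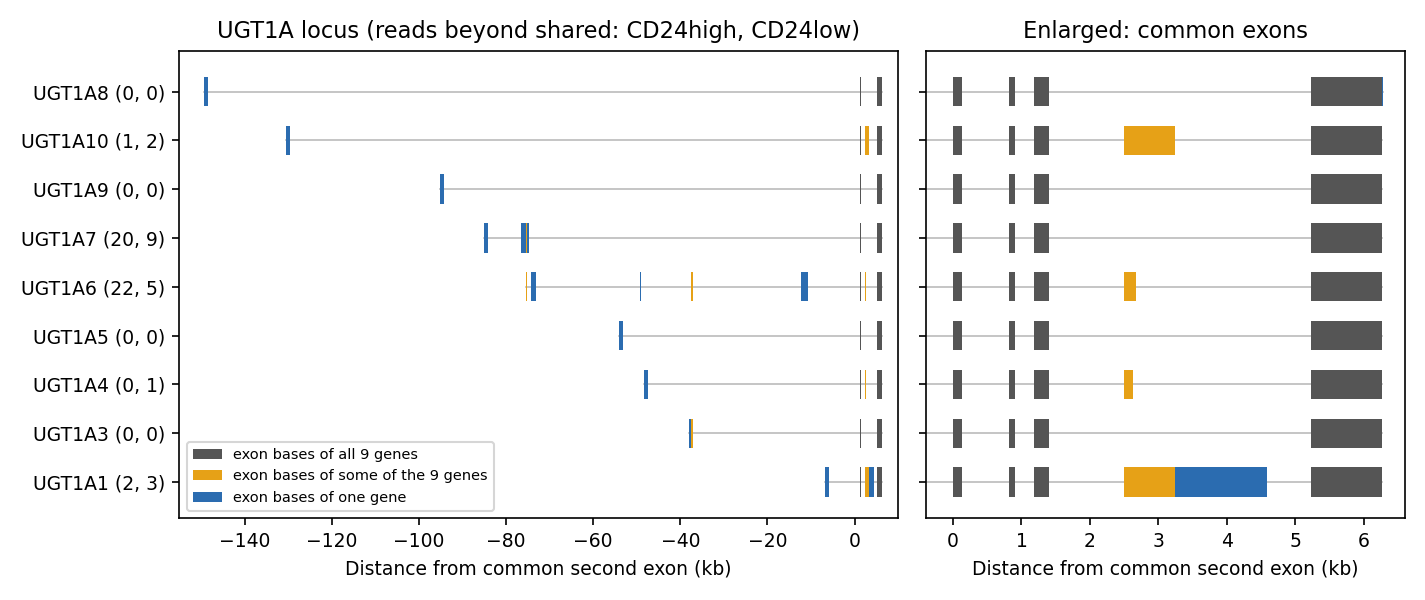
Exons of the 9 UGT1A genes in GENCODE 29, by distance in kb from the start of the common second exon (left, the locus; right, the common exons enlarged). Grey exon bases belong to all 9 genes, orange to some and blue to 1, and the numbers after each name are reads beyond the shared value summed over the CD24high and the CD24low libraries, with 0 for UGT1A3, UGT1A5, UGT1A8 and UGT1A9.

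Per length, the excess reads of UGT1A6 and UGT1A7 can be set beside the shared exons. The shared exons had 12.2 ± 1.59 normalized counts per kb in CD24high and 3.03 ± 2.09 in CD24low libraries (SD, n = 3). Over all exon bases outside the shared part, UGT1A6 (3702 bases) had 2.06 ± 0.627 and 0.426 ± 0.302 per kb, and UGT1A7 (2689 bases) had 2.68 ± 0.738 and 1.06 ± 0.401. Most of those bases belong to alternative transcripts. Divided by the main first exon alone (1000 and 855 bases), the same excess reads gave 7.61 ± 2.32 and 1.58 ± 1.12 per kb for UGT1A6, and 8.44 ± 2.32 and 3.33 ± 1.26 for UGT1A7, which are upper values, since not every such read need lie there. In CD24high libraries the UGT1A6 and UGT1A7 values differed by less than their spread on either length. Relative to the shared value, UGT1A6 excess reads came to 43.1% in the summed CD24high and 35.7% in the summed CD24low libraries, and UGT1A7 excess to 39.2% and 64.3%. Per library, UGT1A6 excess reads per shared read were 0.579, 0.278 and 0.429 in the CD24high and 0.500, 0.750 and 0.125 in the CD24low libraries, and overlapped. For UGT1A7 they were 0.316, 0.444 and 0.429 in the CD24high and 1.00, 0.750 and 0.500 in the CD24low libraries, and did not overlap. These ratios rest on 2 to 8 shared reads in each CD24low library, and the mix of first exons was not tested.

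UGT8 was more abundant than the UGT1A genes and differed less. It lies on the plus strand of chromosome 4, from 114598455 to 114678224, and its row held 354, 279 and 247 normalized counts in the CD24high libraries (293 ± 55.2, SD, n = 3). The CD24low libraries had 234, 138 and 233 (201 ± 55.3, SD, n = 3). The groups did not overlap, but CD24high replicate 3, at 247, lay close to CD24low replicate 1, at 234. The log2 difference was -0.56 (SE 0.23), and it was -0.31 without CD24low replicate 2. The means differed 1.46-fold, and the ratio of the summed reads, 878 and 647, after adjustment for size factors, had an exact 95% counting interval of 1.35 to 1.66. Per length UGT8 had 62.4 ± 11.7 normalized counts per kb of exon in CD24high and 42.9 ± 11.8 in CD24low libraries, above the shared UGT1A exons in each library. The oligodendrocyte markers, from the cells best known for UGT8, with MOG at 0 and nearly all counts from MBP, summed to 1068 to 1226 normalized counts in CD24high and 650 to 1025 in CD24low libraries. The 4 fibroblast markers, with LUM at 0, summed to 19.9 to 38.0 and 32.3 to 119. The 2 endothelial markers, PECAM1 and CDH5, summed to 85.5 to 395 and 105 to 341, nearly all from PECAM1. The immune marker PTPRC had at most 1.98. The part of these and of the breast epithelial markers in the UGT8 and UGT1A values was not tested.

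All 10 members had a mean of at least 10 normalized counts, but the 9 UGT1A rows reached it through the CD24high group: their CD24low means were 4.47 to 7.32. Their means over all 6 libraries ran from 11.2 to 16.3, close above the filter. In 10 of 10 members the CD24low libraries lay below the CD24high libraries, where this was so for 9.32% of all 16047 genes tested. Since the members were chosen with these values known, and the 9 UGT1A rows are nearly 1 signal, nothing is read from that count. Limma, a linear model with a shared estimate of the spread, called 0% of all genes at an adjusted p of 0.05, and DESeq2, run on the recovered reads, called 2.51%.

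Ribosomal RNA took 1.30% to 2.27% of the reads of 3 libraries, CD24high replicates 1 and 2 and CD24low replicate 3, and 7.07% to 10.2% in the other 3 libraries. Within the libraries of low share the shared UGT1A value differed by -1.01 and within those of high share by -2.56, in each case with 1 library on a side and no test. UGT1A6 excess reads differed by -1.97 and -1.86, UGT1A7 excess reads by -0.57 and -1.58, and UGT8 by -0.43 and -0.46. The direction was the same in both, and the part of rRNA share in these values was not tested.

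Genes next to the locus were close in level between the fractions. USP40, a ubiquitin protease gene upstream, had 987 ± 108 and 971 ± 82.4 normalized counts in CD24high and CD24low libraries (limma adjusted p = 0.96). HJURP, a centromere chaperone gene downstream, had 1194 ± 156 and 1122 ± 220 (adjusted p = 0.83). Of the 4 UGT1A pseudogenes in the locus, UGT1A11P, UGT1A12P and UGT1A13P had 0 reads in all libraries and UGT1A2P had 1 read, in CD24high replicate 3. DNAJB3 and MROH2A had 0 reads, and TRPM8, a cold-sensing channel, had at most 1 read in a library. The antisense genes AC114812.2, which overlaps the UGT1A6 first exon, and AC114812.1 had 0 reads in all 6 libraries.

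Reads of other glucuronosyltransferases were nearly absent. Of 12 genes of the UGT2 and UGT3 families, 9 had 0 reads. UGT2B7, which conjugates morphine and steroids, had 3.32 normalized counts in CD24high replicate 1 and 0 elsewhere, UGT2A1 had 1 read in CD24high replicate 3, and UGT2B15, which conjugates androgens, had 1 read in CD24low replicate 3. All lie around the limit of 3 reads per library, so no comparison was possible.

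The wider pathway was followed in 9 lists that hold 82 genes besides the members, of which 51 were tested. Limma called 0 of the 51 over all genes, with 11 at an unadjusted p under 0.05 (2164 of 16047 genes), edgeR's quasi-likelihood test called 0, and DESeq2 called 3. The groups did not overlap for 13 of 51 genes, 5 lower and 8 higher in CD24low cells, where this held for 19.5% of all genes tested. The median log2 difference was -0.02 over the 51 genes and -0.01 over all genes.

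No gene for the supply of UDP-sugars was called. UGDH, which oxidises UDP-glucose to the UDP-glucuronic acid that UGT1A enzymes use, stood at 739 ± 59.2 normalized counts in CD24high libraries and at 805 ± 36.0 in CD24low libraries (log2 difference 0.12, SE 0.11, limma adjusted p = 0.67). GUSB, the lysosomal enzyme that removes glucuronic acid, had 462 ± 101 and 523 ± 74.2 (0.19, SE 0.17, adjusted p = 0.67). The transporters SLC35A2, for UDP-galactose, and SLC35D2 differed by -0.10 and -0.12. Of 8 tested genes in this list 5 had positive and 3 negative differences, with a median of 0.02, and limma called 0.

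Known regulators of the locus were expressed in part. AHR, the receptor for dioxins and plant indoles that drives UGT1A1 and UGT1A6, had 2137 ± 89.3 and 2031 ± 322 normalized counts. Its partner ARNT had 287 ± 2.24 and 404 ± 114 (log2 difference 0.46, SE 0.19, limma adjusted p = 0.33), with no overlap between the groups. NFE2L2, which encodes NRF2, had 1159 ± 34.3 and 1340 ± 220 (0.20, adjusted p = 0.54). KEAP1, which encodes the inhibitor of NRF2, had 1008 ± 45.6 and 1177 ± 66.2 (0.22, adjusted p = 0.39). ESR1, the estrogen receptor, had 34.9, 30.6 and 39.5 in the CD24high libraries, and 11.5, 8.60 and 15.7 in the CD24low libraries, without overlap (log2 difference -1.51, SE 0.32, limma adjusted p = 0.12, DESeq2 adjusted p = 0.051). Split by rRNA share, it differed by -1.01 where the share was low and by -1.89 where it was high. The gut regulator CDX2 and the xenobiotic receptor NR1I2 had 0 reads in all libraries, and HNF4A had at most 3.82 normalized counts. Of 9 tested regulators, 3 had positive and 6 negative differences, with a median of -0.02.

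AHR and ARNT together bind DNA at the core GCGTG. Promoter windows were taken from RefSeq (GRCh38.p14), 250 bases before to 50 after a start. The core or its reverse complement CACGC was found in 6 of 9 UGT1A windows and in 12832 of all 35116 windows, 36.5%. The 9 UGT1A windows belong to 8 of the 9 genes, as UGT1A10 had no window. UGT1A6 is shown since its excess reads differed most between the fractions: its window at the upstream start, chr2:233691452-233691751 on the plus strand, holds the core once (in capitals), and the window at its main first exon holds it 0 times.
UGT1A6: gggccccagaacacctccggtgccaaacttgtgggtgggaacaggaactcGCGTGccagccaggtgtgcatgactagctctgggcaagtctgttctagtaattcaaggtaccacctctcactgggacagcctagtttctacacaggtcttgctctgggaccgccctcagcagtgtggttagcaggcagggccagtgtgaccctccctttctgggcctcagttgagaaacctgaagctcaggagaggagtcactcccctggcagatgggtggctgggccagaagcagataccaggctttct
A match is a description of letters and not a binding site. Among AHR target genes, CYP1B1, a monooxygenase of estrogens and hydrocarbons, had 268, 263 and 191 normalized counts in the CD24high libraries, and 843, 2355 and 601 in the CD24low libraries (log2 difference 2.15, SE 0.41, limma adjusted p = 0.088, DESeq2 adjusted p = 0.0082). It was thus higher in each CD24low library, and any part of AHR in the UGT1A values was not tested. CYP1B1 differed by 1.18 where rRNA share was low and by 2.87 where it was high. ALDH3A1, an aldehyde dehydrogenase, had 51.1 ± 7.01 and 90.4 ± 42.5 (0.72, SE 0.31, limma adjusted p = 0.35), also without overlap. TIPARP, a direct AHR target, had 1579 ± 145 and 1674 ± 156 (0.08), and CYP1A1 had at most 2.64 normalized counts. All 4 tested AHR targets, NQO1 (0.33) among them, had positive differences (median 0.53). Where rRNA share was low, NQO1 (-0.21) and TIPARP (-0.12) had negative ones. Limma called 0 of 4, and DESeq2 called CYP1B1.

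NRF2 targets had no common direction. GCLC, a subunit of the enzyme that starts glutathione synthesis, had 1185 ± 95.5 and 967 ± 95.4 normalized counts (log2 difference -0.29, SE 0.12, limma adjusted p = 0.33), without overlap. NQO1, a quinone reductase, had 2996 ± 1112 and 3609 ± 558 (0.33, adjusted p = 0.59), HMOX1, heme oxygenase, differed by 0.50 (adjusted p = 0.48), and SLC7A11, the cystine importer, by -0.32 (adjusted p = 0.65). The direction of these last 3 turned with rRNA share: NQO1 differed by -0.21 and HMOX1 by -0.11 where the share was low, and SLC7A11 by 0.48 where it was high. Of 7 tested, 3 had positive and 4 negative differences (median -0.03).

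Among other conjugating enzymes, 2 sulfotransferases were higher in CD24low cells by DESeq2. SULT1E1, which sulfates estrogens, had 222, 275 and 188 normalized counts in the CD24high libraries, and 456, 828 and 588 in the CD24low libraries (log2 difference 1.42, SE 0.22, limma adjusted p = 0.068, DESeq2 adjusted p = 1.2e-06). SULT1B1, which sulfates thyroid hormone and phenols, had 28.2, 23.7 and 17.5 against 76.7, 170 and 77.4 (2.09, SE 0.34, limma adjusted p = 0.072, DESeq2 adjusted p = 2.9e-05). The groups did not overlap for either gene. SULT2B1, which sulfates cholesterol in skin, lay the other way, with 14.8 ± 2.80 and 5.37 ± 1.69 (-1.33, SE 0.40, limma adjusted p = 0.21), as did TPMT, a thiopurine methyltransferase (-0.41, SE 0.18, adjusted p = 0.35). GSTP1, a glutathione transferase, had 5963 ± 178 and 5900 ± 511. Of 9 tested, 5 had positive and 4 negative differences (median 0.02); limma called 0.

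Exporters of conjugates and enzymes around UGT8 were not called. ABCC2, which exports glucuronides, had 350, 266 and 300 normalized counts in the CD24high libraries, and 157, 239 and 197 in the CD24low libraries (log2 difference -0.64, SE 0.19, limma adjusted p = 0.20, DESeq2 adjusted p = 0.085), without overlap. ABCG2 differed by -0.93 (SE 0.42, limma adjusted p = 0.37), ABCC4 by 0.45 (adjusted p = 0.38) and ABCC1 by 0.23 (adjusted p = 0.52), all 3 with overlap. Where rRNA share was low, ABCG2 differed by 0.07 and ABCC4 by -0.07, against their direction over all libraries. UGCG, which makes glucosylceramide from the same ceramide that UGT8 uses, had 1441 ± 259 and 1151 ± 69.3 (-0.31, SE 0.14, adjusted p = 0.37). FA2H, which makes the hydroxylated fatty acids of galactolipids, differed by -0.47 (SE 0.31), and CERS2, a ceramide synthase, by 0.17 (SE 0.10, adjusted p = 0.49). GAL3ST1, which sulfates galactosylceramide to sulfatide, had 1.46 normalized counts in CD24high replicate 3, 1.76 in CD24low replicate 1, 0.980 in CD24low replicate 3 and 0 elsewhere. GALC, which breaks galactosylceramide down, had 1 read in CD24high replicate 3 and 0 reads elsewhere, while UGT8 itself had 138 to 354 normalized counts.

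**Figure D4:**
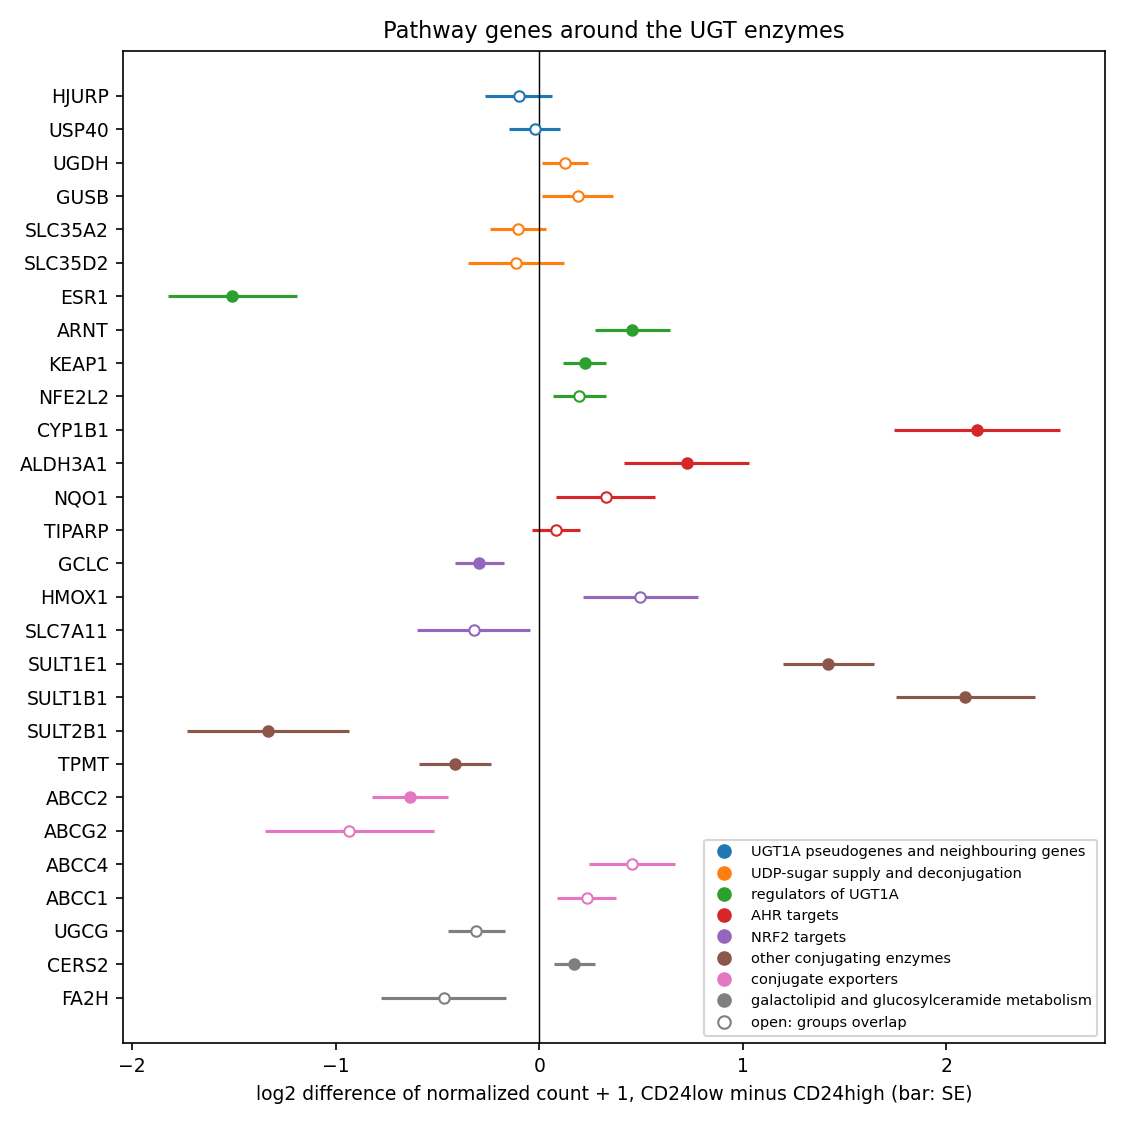
Log2 differences (CD24low minus CD24high, horizontal axis) of normalized count + 1 for the named pathway genes, with bars for the SE from limma and colours for the list. Filled points are genes whose groups do not overlap; CYP1B1 (2.15) and SULT1B1 (2.09) lie farthest to the right and ESR1 (-1.51) farthest to the left.

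Among 12766 other genes whose mean reached 50 normalized counts, those whose log2 values over the 6 libraries were most like the shared UGT1A value were TLR6, an innate immune receptor (Pearson r = 0.99), the kinase gene TAOK3 (0.99), DSC3, a desmosomal cadherin (0.99), NECTIN4, an adhesion protein (0.99), and FAM198B-AS1 (0.98). All 5 were lower in each CD24low library, which the choice by likeness to the UGT1A value nearly fixes in advance. They differed by less than that value: DSC3 had 1672 ± 74.6 and 1229 ± 139 normalized counts, and FAM198B-AS1 had 101 ± 19.7 and 48.9 ± 14.5. Most like UGT8 were NAA15, a subunit of a protein acetyltransferase, LARP1B, an RNA-binding protein, MED7 of the Mediator complex, RDH10, a retinol dehydrogenase, and SELENOI, a phospholipid synthesis enzyme, each with r of 0.99 or more. Correlations over 6 libraries that also differ in depth are descriptions only.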

How the data were processed

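RNA-seq of total RNA depleted of ribosomal RNA was measured in 6 libraries, 3 per sorted fraction, and libraries were grouped by their titles. For each gene the authors deposited a scaled read signal, the count after division by a size factor of its library. Per the submitters' processing notes, STAR 2.5.2, R 3.5.0, DESeq2 and hg38 were used. The read counter and its strand setting, and the release of the annotation, are not given in these sources. Whole reads were recovered by dividing each library by its smallest step, which gave whole numbers to within 0.1 reads for 100% of values. Library totals were 16691162 to 27293177 reads per library, and the shallowest, CD24high replicate 3, has the least precise low counts.

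Symbols, exons and coordinates are from GENCODE 29 (58261 of 58381 IDs matched without version), and promoters from RefSeq (GRCh38.p14). The shared value is the smallest UGT1A row in a library, and reads beyond it are a row's own. First exons were aligned with Biopython 1.88. The main test was limma 3.58.1 with its trend option on log2 values after adding 1 to the normalized count, two-sided, group as the only term, for the 16047 genes whose mean reached 10, with Benjamini-Hochberg adjustment over all of them and a threshold of 0.05. DESeq2 1.42.0 and edgeR 4.0.16 were run on the recovered reads in R 4.3.3, with Python 3.11.15 for the rest. The fit was also run on simulated counts that had no rRNA split and no replicate pairs, so that run does not bear on either. Counting intervals are exact (Clopper-Pearson) and leave out all error but that of counting, as no molecular identifiers are described. In each pair of replicates counts differed by more than sampling noise, so every library was counted once.

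Members and lists were chosen with earlier results of these data known. Named genes were the members, every locus neighbour with a read, up to 4 tested genes per other list by smallest limma p (1 that the rule names is not reported here), and the 5 genes most like each signal with a mean of at least 50; AHR, CDX2, NR1I2, HNF4A, CYP1A1, GSTP1, GAL3ST1, GALC, UGT2A1, UGT2B7, UGT2B15 and the antisense genes were added after their values were seen. Alternatives were other pseudocounts, filters, scalings and tests, a replicate block, the rRNA split and each library left out.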

Additional observations from a re-analysis of the deposited data

How the results depend on the processing

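The shared UGT1A value, the UGT1A6 and UGT1A7 excess reads and UGT8 were lower in CD24low cells under each alternative run. Nothing is read from this, as the members were chosen with these values known. Since the groups did not overlap, another pseudocount, a library left out or the rRNA split could not turn the direction. The filters and the replicate block in limma leave the log2 difference itself unchanged. With a pseudocount of 5 the log2 differences were -1.33, -0.94 and -0.63 for the shared value, UGT1A6 and UGT1A7. The shared value differed by -1.01 where rRNA share was low and by -2.56 where it was high, and UGT1A7 by -0.57 and -1.58; the cause was not tested. With 1 library left out the shared value ranged from -2.37 to -1.53, UGT1A6 from -2.12 to -1.60, UGT1A7 from -1.32 to -0.88 and UGT8 from -0.69 to -0.31. The count of genes called over all genes, 0 in the main test, was 164 with no filter, 402 with DESeq2, 716 with the replicate block and, in an alternative chosen after seeing the data, 705 with the block in edgeR. Among list genes it was 3 with no filter and with DESeq2 (CYP1B1, SULT1B1 and SULT1E1) and 4 with the block in limma and in edgeR, which added ESR1. With 1 library left out these counts ranged from 0 to 366 and from 0 to 4, both highest without CD24low replicate 3. Replicate numbers were not taken as pairs in the main test. Libraries of the same number had deviations correlated at 0.27, 0.30 and 0.05, and libraries of different numbers at -0.26 to 0.08. CD24low replicate 3 did not correlate best with its own number (0.05, against 0.08 with CD24high replicate 1). Whether the numbers mark pairs is not settled by these values. If they do, the main test leaves the pairing out, and the counts with the replicate block take it in. Some log2 differences near 0 changed sign in a refit. With 1 library left out, HJURP ranged from -0.209 to 0.0731, USP40 from -0.116 to 0.0450 and SLC35D2 from -0.319 to 0.0584, and USP40 was 0.0311 in the fit that holds rRNA share as a term. Within one rRNA share, with 1 library on a side in each case, the direction turned for 11 named pathway or neighbouring genes. Where the share was low this was so for ABCG2 (0.07), NQO1 (-0.21), HMOX1 (-0.11), ABCC4 (-0.07), TIPARP (-0.12), HJURP (0.12) and SLC35A2 (0.04), and where it was high for SLC7A11 (0.48), SLC35D2 (0.46), GUSB (-0.16) and USP40 (0.16). Over all 29 pathway and neighbouring genes that the rule names, 531 of 548 alternative values kept the direction of the main one. Many of them could not turn, since the filters and the replicate block in limma leave a gene's difference unchanged. For genes whose groups did not overlap, leaving a library out could not turn it either. Depth limits the comparison of first exons, with 14 shared reads and 5 and 9 excess reads of UGT1A6 and UGT1A7 in the CD24low group.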
